A study of Mus musculus with 19 samples.

Results

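Mouse fibroblasts that had received FGF for 12 h while MEK was inhibited were compared with the quiescent cells from which they started. The comparison takes 5 of the 19 arrays of the series: 3 of quiescent cells and 2 of cells with FGF plus U0126 for 12 h. The comparison was fitted over all 14996 genes that passed a filter on low signals; the genes and lists described were chosen with earlier results known. The cells were NIH3T3, an established line of mouse fibroblasts. All groups were kept for 48 h in 0.1% serum to make them quiescent. The FGF plus U0126 samples then had 20 µM U0126 from 0.5 h before FGF at 50 ng/ml, and RNA was taken 12 h after FGF. Quiescent samples had neither agent and were taken at 0 h. A pair of further groups served as comparators, FGF alone for 12 h and FGF plus U0126 for 4 h, with 2 arrays each. Cells starved for the added 12 h without FGF, and cells with U0126 but no FGF, were not analysed here. The effects of FGF, of U0126 and of the added time in culture therefore cannot be told apart in the comparison with quiescence.

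FGF binds receptor tyrosine kinases at the cell surface and starts several pathways at once. One runs through RAS, RAF and MEK to the kinases ERK1 and ERK2, which switch on immediate-early genes and, after some hours, genes for entry into S phase. Another runs through PI3K and AKT, which keep FOXO transcription factors out of the nucleus and promote lipid synthesis and growth. U0126 binds MEK and prevents it from activating ERK, while it is not aimed at the PI3K branch. It has other known effects on cells, among them on stress and xenobiotic responses. The comparison asks what is left of the transcript response to FGF when the MEK step is blocked from the start.

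The samples carry an experiment number, which pairs them. Experiment 1 held quiescent samples 1a and 1b, averaged before the fit, and FGF plus U0126 sample 1. Experiment 2 held quiescent sample 2 and FGF plus U0126 sample 2. Values below are MAS5 signals, a linear brightness scale, and differences are log2 values taken after adding 13.6 to each signal, which understates changes of dim genes. A gene was called changed at a limma adjusted p under 0.05 in a fit with the experiment as a block. Each count of 0 given for a gene list with all samples and the block is also 0 at an unadjusted limma p under 0.05, except that 1 gene each would count for the amino acid, ribosome biogenesis, oxidative phosphorylation, IGF ligand, RAS pathway, epithelial and endothelial lists, and for clock genes against FGF. The labels do not say whether replicates were separate cultures, so p-values measure only the spread between these samples, which may be technical. Median signals of the 5 arrays lay between 70.1 and 85.0, and Gapdh 3'/5' signal ratios between 0.698 and 0.793. Signal is not comparable between genes, because probes differ in affinity. Of 11 fibroblast markers tested, 10 had a quiescent mean above 45.2, the 40th percentile of all signals, and all 11 did with FGF plus U0126.

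FGF plus U0126 changed 2156 of 14996 genes against quiescence, or 14.4% of those tested. Of these, 961 were higher (6.41%) and 1195 were lower (7.97%). More than 2-fold changes were seen for 181 of the higher and 234 of the lower genes, so most called changes were small. The direction was the same in both experiments for 2155 of the 2156. Signals of the 2 groups did not overlap for 868 of the higher and 1107 of the lower genes. The calls rest on these same samples, so both kinds of count are largely fixed by the calling and add no separate support. Leaving out the experiment block keeps each log2 difference as it is, so directions could not change. The count of called genes was then 813, all among the 2156. It was 984 without quiescent sample 2, 1169 without FGF plus U0126 sample 1 and 1089 without sample 2.

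**Figure D1:**
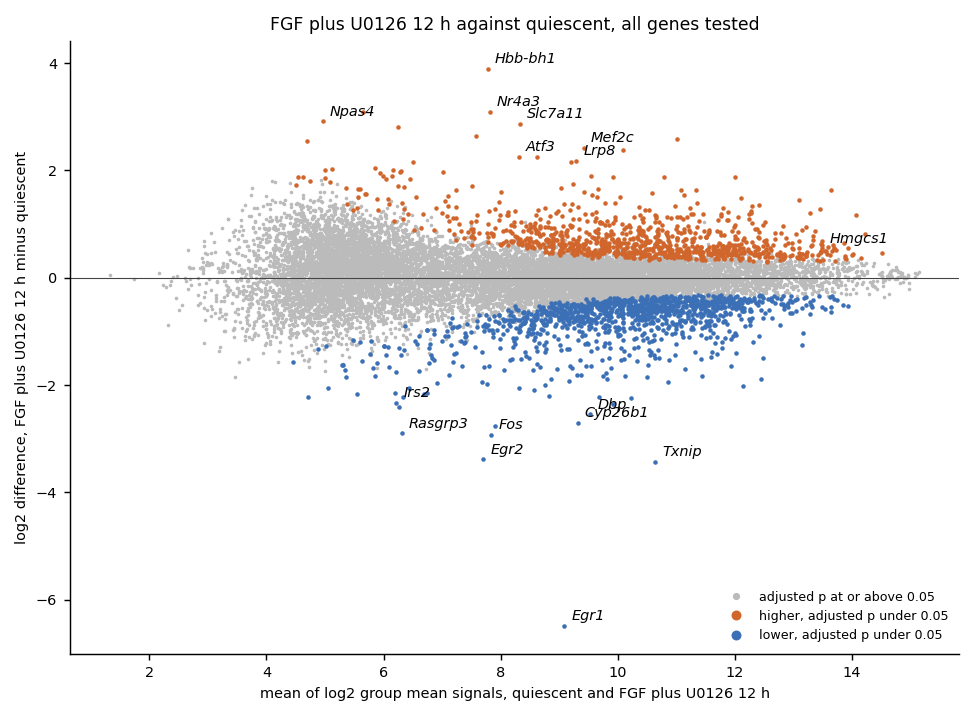
Log2 difference between FGF plus U0126 at 12 h and quiescence (vertical axis) against the mean of the log2 group mean signals (horizontal axis), 1 point for each of 14996 genes; orange points were called higher, blue points lower and grey points not called. Egr1 lies lowest at -6.49 and Hbb-bh1 highest at 3.90, and calls at small differences occur mainly among bright genes.

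The genes closest to ERK did not move as a block. Of 21 ERK feedback and target genes tested, 6 were higher than in quiescence and 4 lower, against 6.41% and 7.97% of all genes. The median difference was -0.12. Egr1, a zinc-finger transcription factor made within minutes of ERK activation, gave signals of 2889, 6135 and 8039 in quiescent samples 1a, 1b and 2. It gave 43.4 and 60.7 in the FGF plus U0126 samples. The groups were far apart, with a difference of -6.49 ± 0.21 (SE, adjusted p = 1.8e-12), or 89.6-fold. The drop was the largest among all genes tested, and it started from a quiescent level that was itself well above the array median. Against FGF alone, Egr1 was not among the 6 named genes that fell most, the last of which was Lrr1 at -4.48. The fall of Egr1 from quiescence, and those of the genes below, do not measure the effect of U0126 alone. Egr3 and Egr2, of the same family, fell by 2.77 and 3.39. Etv5, an ETS factor that responds to FGF signals, fell by 1.73 (adjusted p = 7.8e-06), from 509, 414 and 545 to 120 and 167.

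Other ERK-linked genes were higher with FGF plus U0126 than in quiescence. Fosl1, a subunit of the AP-1 factor, had signals of 276, 392 and 311 in quiescence and 663 and 918 with FGF plus U0126, a rise of 1.25 ± 0.19 (adjusted p = 1.7e-04). Plaur, the urokinase receptor, went from 263, 308 and 289 to 996 and 899, a rise of 1.68 ± 0.13. Neither pair of groups overlapped. With FGF alone at 12 h the same probe sets gave 3285 and 2970 for Fosl1 and 2234 and 2036 for Plaur, and the direct difference between FGF plus U0126 and FGF was -1.98 for Fosl1 (adjusted p = 3.9e-07) and -1.16 for Plaur (adjusted p = 1.9e-06). Dusp4, a nuclear phosphatase of ERK, also rose by 1.16, but lost its call without the block or without FGF plus U0126 sample 2.

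For several feedback genes no change from quiescence was called. Dusp6, the cytosolic ERK phosphatase often read as a gauge of ERK activity, had signals of 907, 1263 and 1560 in quiescence and 1405 and 1630 with FGF plus U0126. These overlapped, and the difference was 0.23 ± 0.14 (adjusted p = 0.33). FGF alone gave 6720 and 6741, and the difference between FGF plus U0126 and FGF was -2.14 (adjusted p = 3.1e-09). Spry4, an inhibitor of receptor signalling, differed from quiescence by 0.02 ± 0.36 and Etv4, a relative of Etv5, by 0.46 ± 0.56. Myc, the growth regulator, differed by 0.26 ± 0.13 (adjusted p = 0.22). Against FGF alone, 16 of the 21 genes of the list were lower and 0 were higher at an adjusted p under 0.05, where 9.08% of all genes were lower and 11.6% higher.

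Immediate-early genes are transcribed at once after a stimulus without new protein. Of 28 tested, 7 rose and 10 fell against quiescence, beside 6.41% and 7.97% of all genes. The number that fell was 6 without the block and 6 without quiescent sample 2. Fos, the founding AP-1 subunit, had widely spread quiescent signals of 204, 565 and 1298 and signals of 74.5 and 77.7 with FGF plus U0126. All quiescent samples were higher, and the difference was -2.93 ± 0.36 (adjusted p = 2.1e-05). FGF alone gave 69.0 and 97.3 at this time, so Fos was low with and without the inhibitor. Ccn2, a matrix-associated growth regulator, fell by 1.53 ± 0.25 (adjusted p = 3.2e-04).

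The immediate-early genes that rose included orphan nuclear receptors and stress factors. Nr4a3 had signals of 135, 10.4 and 81.8 in quiescence and 447 and 889 with FGF plus U0126, with no overlap (3.09 ± 0.46, adjusted p = 1.4e-04). Its relative Nr4a2 rose by 1.59. Atf3, a repressor induced by many kinds of stress, was at 139, 140 and 139 in quiescence and at 636 and 807 with FGF plus U0126, while FGF alone gave 61.0 and 43.0. Its rise against quiescence was 2.25 ± 0.21 (adjusted p = 1.1e-06), and the direct difference from FGF was 3.49 (adjusted p = 1.6e-09). Npas4, best known from neurons, was at 15.5, 3.9 and 2.4 in quiescence, under the 40th percentile, and at 101 and 166 with FGF plus U0126. It was called higher, but the size of its rise depends on the offset, at 2.92 with the offset of 13.6, 4.56 with 1 and 1.78 with the 40th percentile.

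**Figure D2:**
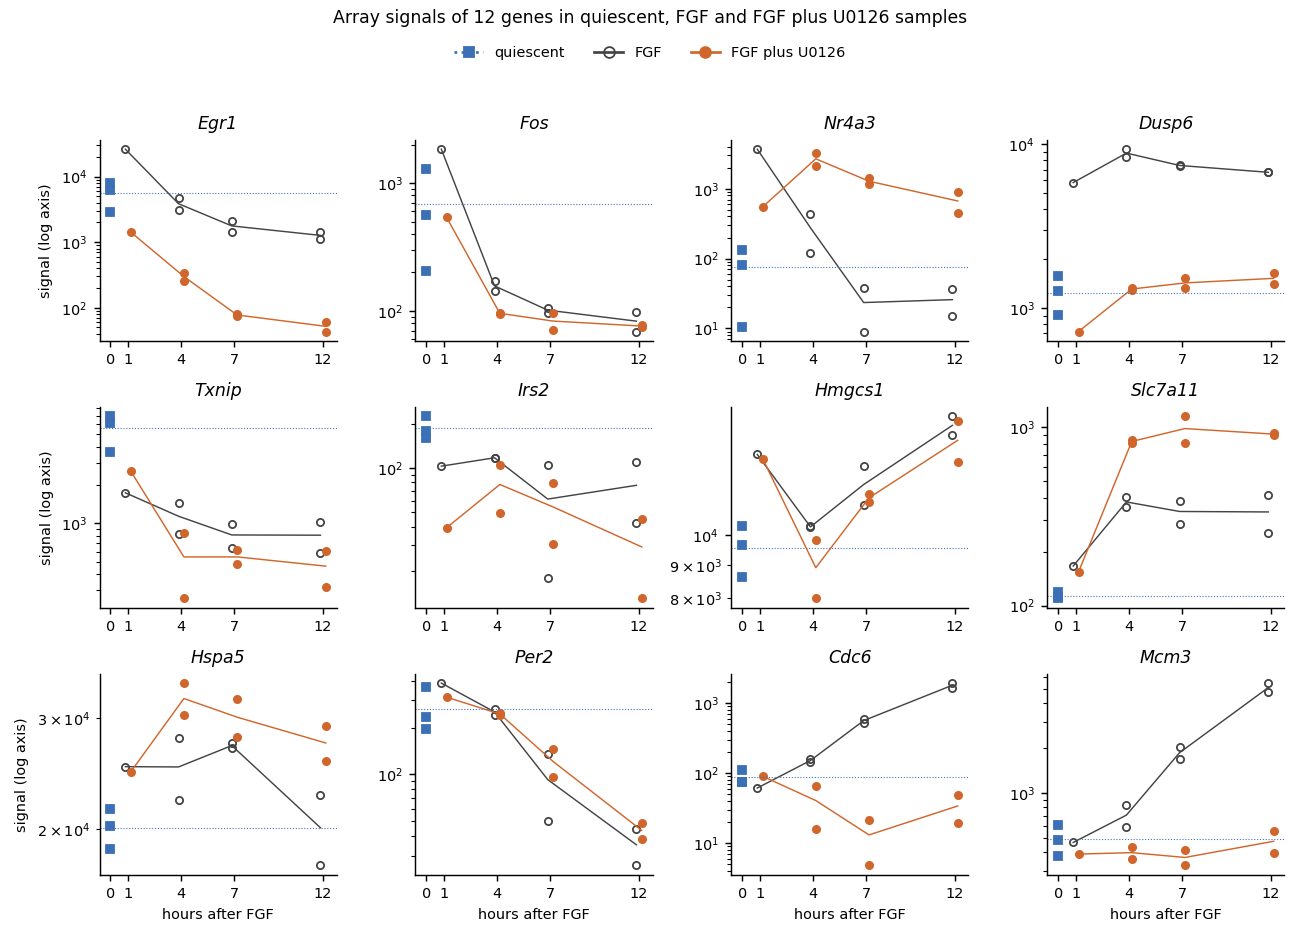
Array signals (log axis) of 12 genes against hours after FGF; blue squares are the 3 quiescent samples with their mean as a dotted line, open circles are FGF samples, filled circles are FGF plus U0126 samples, and lines join group means. With FGF plus U0126 at 12 h Egr1, Fos, Txnip, Irs2 and Per2 lie below all quiescent samples, Nr4a3, Slc7a11, Hmgcs1 and Hspa5 lie above them, and Dusp6 and Mcm3 overlap them.

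The genes for DNA replication stayed near or under their quiescent level. Of 47 G1/S and DNA replication genes tested, 1 was higher than in quiescence and 12 lower, against 6.41% and 7.97% of all genes. The list median was -0.22. The number lower was 4 without the block, 7 without quiescent sample 2 and 5 without FGF plus U0126 sample 2. E2f7, a repressor of the E2F family that is itself an E2F target, had 429, 495 and 559 in quiescence and 178 and 154 with FGF plus U0126 (-1.54 ± 0.21, adjusted p = 5.1e-05). Prim1, the small primase subunit, fell by 0.82 ± 0.13 (adjusted p = 3.7e-04). Tk1, thymidine kinase, fell by 1.09 ± 0.24, with overlapping signals of 216, 446 and 152 in quiescence and 156 and 56.7 with FGF plus U0126; the call was lost without the block and without FGF plus U0126 sample 2. The gene that rose was Cdc25a, a phosphatase that activates CDK2, by 0.64; this call was lost without the block, without quiescent sample 2 and without either FGF plus U0126 sample.

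The same genes separated the inhibited cells from cells with FGF alone. All 47 were lower with FGF plus U0126 than with FGF at an adjusted p under 0.05, against 9.08% of all genes. The list median was -2.47. Cdc6, which loads the MCM helicase, gave 74.9, 110 and 75.8 in quiescence, 48.2 and 19.7 with FGF plus U0126, and 1938 and 1673 with FGF. It differed from FGF by -5.32 (adjusted p = 1.7e-08), and its difference of -1.09 from quiescence was not called (adjusted p = 0.075). Mcm3, a helicase subunit, was at 483, 603 and 374 in quiescence and at 553 and 392 with FGF plus U0126 (0.05 ± 0.16), against 5469 and 4733 with FGF. Ccne2, cyclin E2, differed from quiescence by -0.47 ± 0.29 (adjusted p = 0.34) and from FGF by -4.18 (adjusted p = 6.9e-09). Of 32 G2/M genes, 31 were lower than with FGF, and the exception was Cdc25b at 0.03. Against quiescence 1 of the 32 was higher and 2 were lower, and no call was left without the block, without quiescent sample 2 or without FGF plus U0126 sample 2; without quiescent sample 1a 5 were lower, and without 1b 1 was.

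E2F sites are a textbook feature of replication gene promoters, and the promoters shown are those of the 4 genes that fell most against FGF among the list's genes with a match. The letters searched on both strands were TTTGGCGC, TTTGCCGC, TTTCGCGC and TTTCCCGC, in windows from 250 bases before to 50 after the RefSeq start (build GRCm38.p6). Capitals mark the matches, which can overlap one another; stretches end at or before the start, are written in the direction of the gene, and a match on the other strand appears as the reverse complement.
Cdc6 (chr11:98907957-98908076, plus strand): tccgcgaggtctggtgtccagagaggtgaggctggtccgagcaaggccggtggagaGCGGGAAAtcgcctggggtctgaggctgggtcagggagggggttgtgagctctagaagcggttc
Mcm5 (chr8:75109302-75109421, plus strand): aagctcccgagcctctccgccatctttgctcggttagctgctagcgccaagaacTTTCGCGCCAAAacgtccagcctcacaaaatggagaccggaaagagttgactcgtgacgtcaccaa
Uhrf1 (chr17:56304072-56304191, plus strand): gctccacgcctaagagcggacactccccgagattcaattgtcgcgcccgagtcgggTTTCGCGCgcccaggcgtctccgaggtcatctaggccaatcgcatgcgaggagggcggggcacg
Mcm6 (chr1:128359721-128359840, minus strand): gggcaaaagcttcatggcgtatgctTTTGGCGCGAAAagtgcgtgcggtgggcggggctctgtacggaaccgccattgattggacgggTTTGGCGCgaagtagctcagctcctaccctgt
Of the 47 genes, 40 had a promoter in the table and 18 of these held a match, against 2.61% of all 27025 genes with a promoter. Mcm5 and Mcm6, helicase subunits, differed from FGF by -4.02 and -3.82 and from quiescence by -0.60 and -0.71. Uhrf1, which maintains DNA methylation at the fork, differed from FGF by -3.93 and from quiescence by -0.47 (adjusted p = 0.18). A match in these letters is a description and not a measured binding site.

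**Figure D3:**
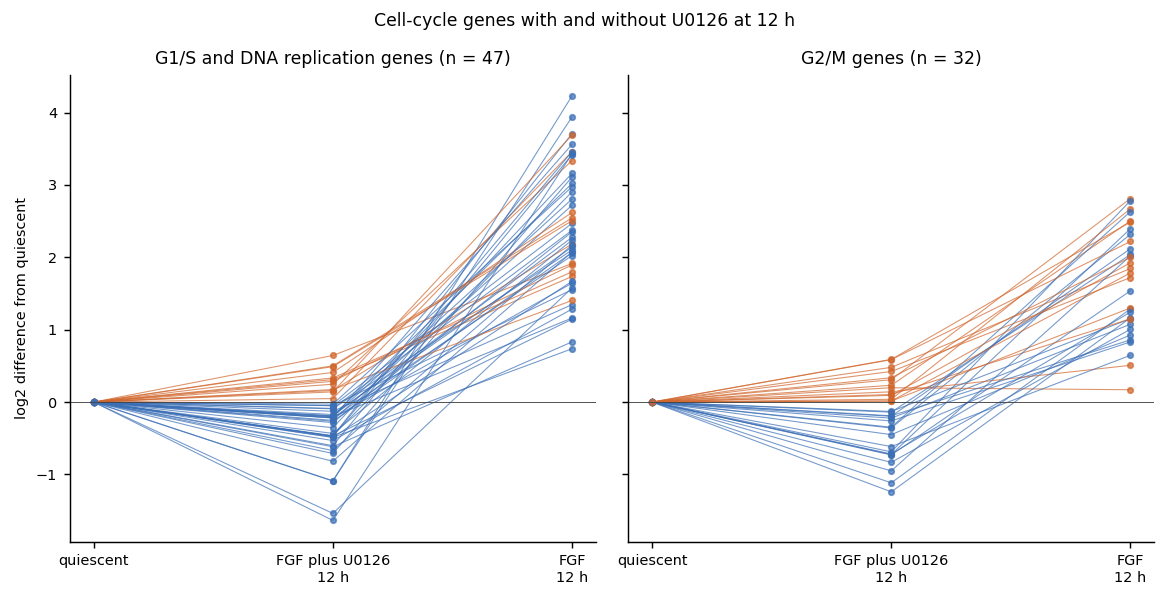
Log2 difference from the quiescent level of each gene in the G1/S and DNA replication list (47 genes, left) and the G2/M list (32 genes, right) with FGF plus U0126 at 12 h and with FGF at 12 h; each line is 1 gene, orange where its difference with U0126 is above 0 and blue where it is below. With U0126 the G1/S genes lie between -1.64 and 0.64, with a median of -0.22, and with FGF their median is 2.28.

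Inhibitors of the cycle gave mixed values. Ccnd1, cyclin D1, which drives G1 and is a known ERK-dependent gene, was at 1940, 2111 and 2502 in quiescence and 1706 and 1919 with FGF plus U0126 (-0.31 ± 0.14, adjusted p = 0.16), against 5976 and 5388 with FGF. Cdkn1a, p21, differed from quiescence by -0.01 ± 0.12 and Cdkn1b, p27, by -0.21 ± 0.21, neither called. Cdkn1a and Cdkn1b were higher than with FGF alone, by 0.69 (adjusted p = 2.5e-04) and 0.88 (adjusted p = 0.0049). Cdkn2c, p18, an inhibitor of CDK4 and CDK6, fell from 6119, 5813 and 5800 in quiescence to 2747 and 2986 with FGF plus U0126 (-1.03 ± 0.12, adjusted p = 9.1e-06) and kept its call under all 16 alternatives. FGF alone gave 3730 and 3854 for it, and the direct difference from FGF was -0.40 (adjusted p = 0.020). Of 29 antiproliferative genes, 4 were higher (2 without FGF plus U0126 sample 2) and 8 lower than in quiescence, and 19 were higher and 0 lower than with FGF. The shares over all genes were 6.41% higher and 7.97% lower than in quiescence, and 11.6% and 9.08% than with FGF. Gas6, a growth-arrest gene that encodes a receptor ligand, fell from 676, 656 and 741 to 202 and 204 (-1.73 ± 0.18, adjusted p = 3.8e-06). Mxd4, an antagonist of Myc, fell by 1.23 and Pdcd4, an inhibitor of translation, by 1.10.

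Genes of the FOXO group, which are high in starved cells, fell with FGF plus U0126. Of 18 FOXO factors and targets tested, 0 rose and 12 fell, with a median of -0.69, where 7.97% of all genes fell. The count of 12 was 6 without the block, 6 without quiescent sample 2 and 4 without FGF plus U0126 sample 2. Txnip, which limits glucose uptake and binds thioredoxin, went from 6941, 6131 and 3612 to 606 and 316, all lower (-3.43 ± 0.20, adjusted p = 1.5e-08). Ccng2, an atypical cyclin made in resting cells, went from 3023, 3131 and 2471 to 986 and 947, or 2.82-fold lower, with no overlap. Fbxo32, the ubiquitin ligase atrogin, fell by 1.34 ± 0.21. FGF alone gave 1030 and 583 for Txnip, 461 and 536 for Ccng2 and 146 and 239 for Fbxo32.

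For Ccng2 and Fbxo32 the level with FGF plus U0126 lay between quiescence and FGF. Their differences from FGF were 0.94 (adjusted p = 0.0047) and 0.86 (adjusted p = 0.0066). Txnip was lower than with FGF, with a difference of -0.80 (adjusted p = 0.007). Pik3ip1, an inhibitor of PI3K, had 1785, 3190 and 2058 in quiescence, 1566 and 1226 with FGF plus U0126 and 374 and 367 with FGF. Its fall of 0.67 from quiescence lost its call without the block, without quiescent sample 1b or 2 and without FGF plus U0126 sample 2, while its difference of 1.86 from FGF had an adjusted p of 5.5e-07. Irs2, an adaptor of the insulin receptor, fell by 2.33 ± 0.58, a call lost without quiescent sample 2, without FGF plus U0126 sample 2 (-1.53) and without the variance trend.

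Cholesterol synthesis genes rose nearly throughout. Of 20 genes tested, 18 were higher than in quiescence and 0 were lower, with a median of 0.90, where 6.41% of all genes were higher and the median of all genes was 0.01. Lss, lanosterol synthase, had 404, 502 and 454 in quiescence and 1654 and 1274 with FGF plus U0126 (1.65 ± 0.17, adjusted p = 3.8e-06). Mvd, which makes isopentenyl pyrophosphate, went from 365, 649 and 594 to 1701 and 1226, or 2.64-fold higher (adjusted p = 2.9e-05). Fdps and Idi1, the next steps of the isoprenoid path, both rose by 1.21, with no overlap of the groups. Hmgcs1, the synthase before the rate-limiting reductase, rose by 0.55 ± 0.12 from 8639, 10329 and 9676 to 15023 and 12989, a call lost without FGF plus U0126 sample 1 and without the variance trend; its most variable probe set gave 1.10. The 2 genes not called were Ebp at 0.43 and Srebf2, which encodes the sterol-responsive transcription factor, at -0.02.

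Values with FGF alone lay close to those with the inhibitor. FGF gave 1712 and 1313 for Lss and 1926 and 1306 for Mvd, and the list's median with FGF against quiescence was 1.00. Against FGF directly, 0 of the 20 were higher and 2 lower, beside 11.6% and 9.08% of all genes, with a median of -0.10. The direct difference was -0.05 for Lss (adjusted p = 0.91) and -0.13 for Mvd (adjusted p = 0.69), which does not show that they were equal. Between 4 h and 12 h under U0126, 7 of the 20 rose and 0 fell, where 2.44% of all genes rose and 2.48% fell. Of 16 fatty acid synthesis genes, 8 were higher than in quiescence and 0 lower; the count was 5 without quiescent sample 2 and 5 without FGF plus U0126 sample 1. Elovl6, which lengthens fatty acids, rose by 1.16 and Scd2, a desaturase, by 0.81 (1.54 on its most variable probe set). The octamer CACCCCAC of sterol regulatory elements, searched on both strands, was found in 1 of 16 promoters of the cholesterol list, Hmgcs1, against 3.30% of all genes.

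Amino acid synthesis and transport genes, many of them targets of ATF4, the factor that is translated more under amino acid shortage and ER stress, also rose. Of 26 tested, 15 were higher than in quiescence and 0 lower, against 6.41% and 7.97% of all genes, with a median of 0.58. Slc7a11, the cystine transporter, had 110, 119 and 112 in quiescence and 899 and 925 with FGF plus U0126 (2.87 ± 0.22, adjusted p = 1.5e-07). Chac1, which degrades glutathione, went from 430, 844 and 1324 to 2392 and 3037 (1.58 ± 0.19). Mthfd2 of mitochondrial folate metabolism and Trib3, a pseudokinase, both rose by 1.26. Atf4 itself rose by 0.63 (adjusted p = 6.6e-04), and Asns, asparagine synthetase, by 0.73.

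Unlike the cholesterol genes, many of this list also differed from FGF alone. Of the 26, 15 were higher than with FGF and 2 lower, against 11.6% and 9.08% of all genes. FGF gave 254 and 415 for Slc7a11, a direct difference of 1.45 (adjusted p = 8.2e-05). It gave 524 and 576 for Chac1 (2.27, adjusted p = 1.0e-07) and 417 and 477 for Trib3 (2.24, adjusted p = 1.9e-07). Mthfd2 was the exception among these, at 2332 and 2270 with FGF and 2238 and 2532 with FGF plus U0126 (0.05, adjusted p = 0.91). Between 4 and 12 h under U0126 none of the 26 was called higher and 12 fell, where 2.44% of all genes rose and 2.48% fell. Counts for gene lists between these times were not recomputed under the alternatives. Over all genes the 738 calls became 133 without the block and 57 without the variance trend. Chac1 was at 6222 and 5532 at 4 h and lower at 12 h in both experiments (-1.12, adjusted p = 0.0024).

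The amino acid response site TGATGCAA, which ATF4 binds together with a C/EBP partner, was searched on both strands of the same promoter windows. The 3 called genes of the list that hold it are shown, with the site in capitals and TTGCATCA marking the reverse strand.
Slc7a11 (chr3:50443614-50443733, minus strand): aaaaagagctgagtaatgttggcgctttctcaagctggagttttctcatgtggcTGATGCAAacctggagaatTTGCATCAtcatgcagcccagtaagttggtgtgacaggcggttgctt
Chac1 (chr2:119350993-119351112, plus strand): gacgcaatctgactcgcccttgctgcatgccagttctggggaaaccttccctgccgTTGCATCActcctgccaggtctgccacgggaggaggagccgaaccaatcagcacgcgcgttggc
Aars (chr8:111033674-111033793, plus strand): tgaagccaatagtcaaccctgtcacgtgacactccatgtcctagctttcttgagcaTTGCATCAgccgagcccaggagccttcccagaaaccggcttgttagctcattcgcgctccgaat
Slc7a11, with the largest rise of the list, holds 2 sites in opposite directions. Of 22 genes of the list with a promoter in the table, 5 held the site, against 1.03% of all genes; the other 2 were Nupr1 and Vldlr, which were not called. Aars, which charges alanine transfer RNA, rose by 0.67.

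Chaperones of the endoplasmic reticulum (ER) rose by smaller amounts. Of 20 genes tested, 12 were higher than in quiescence and 1 lower, against 6.41% and 7.97% of all genes, with a median of 0.47. The number higher was 6 without quiescent sample 2 and 6 without FGF plus U0126 sample 2. Pdia4, a disulfide isomerase, had 1357, 1730 and 1524 in quiescence and 4164 and 3392 with FGF plus U0126 (1.29 ± 0.12, adjusted p = 1.4e-06), while FGF gave 1786 and 1529. Hyou1 and Sdf2l1, which work with the chaperone Hspa5, both rose by 1.20 (Hyou1 by 1.87 on its most variable probe set). Hspa5, or BiP, rose by 0.47 from 21541, 20234 and 18627 to 25642 and 29117. Against FGF, 10 of the 20 were higher and 0 lower, beside 11.6% and 9.08% of all genes.

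The list did not move evenly between 4 and 12 h. Under U0126 2 of the 20 rose between those times, Pdia4 by 0.65 and Hyou1 by 0.66, and 7 fell. Over all genes 2.44% rose and 2.48% fell. Herpud1, which takes part in the degradation of misfolded ER proteins, gave 18140 and 16121 at 4 h and 4484 and 4096 at 12 h (-1.99, adjusted p = 3.0e-08), against 4477, 5757 and 4553 in quiescence. At 12 h its groups overlapped and the difference from quiescence was -0.17 (adjusted p = 0.42). Syvn1, an ubiquitin ligase of the same degradation path, was at 2671 and 2162 at 4 h and 1377 and 1068 at 12 h, and was the member that fell against quiescence (-0.48, adjusted p = 0.048). That call is lost without the block and without quiescent sample 1b or 2 or either FGF plus U0126 sample.

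The ER stress response element, CCAAT and CCACG parted by 9 bases, is bound by NF-Y and ATF6. It was found on either strand in 9 of 18 promoters of the list, against 0.14% of all genes. Among called members that hold the element, the 4 with the largest changes are shown, with both parts in capitals; CGTGG and ATTGG mark the reverse strand.
Creld2 (chr15:88819469-88819588, plus strand): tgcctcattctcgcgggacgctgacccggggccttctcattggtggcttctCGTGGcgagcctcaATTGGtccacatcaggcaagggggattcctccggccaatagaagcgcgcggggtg
Calr (chr8:84847025-84847144, minus strand): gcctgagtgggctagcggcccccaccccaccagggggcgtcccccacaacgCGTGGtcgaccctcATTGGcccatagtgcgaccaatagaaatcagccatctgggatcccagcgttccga
Hsp90b1 (chr10:86705575-86705694, minus strand): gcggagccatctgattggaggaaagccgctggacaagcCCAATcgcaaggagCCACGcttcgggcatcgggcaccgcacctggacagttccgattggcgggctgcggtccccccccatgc
Syvn1 (chr19:6046456-6046575, plus strand): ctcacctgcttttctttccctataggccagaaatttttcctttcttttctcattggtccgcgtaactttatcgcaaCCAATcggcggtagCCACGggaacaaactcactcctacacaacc
Creld2, a disulfide isomerase, rose by 0.94, Calr, the lectin calreticulin, by 0.60 and Hsp90b1, an ER form of HSP90, by 0.57, whereas Syvn1 with the same element was lower. A second match in the Hsp90b1 window lies outside the stretch shown.

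Targets of NRF2, the factor that answers oxidants and electrophiles, were higher for 10 of 17 genes and lower for 1, with a median of 0.42. The shares over all genes were 6.41% and 7.97%. The number higher was 6 without the block. Gsta4, a glutathione transferase for lipid aldehydes, had 8940, 7510 and 6037 in quiescence and 21972 and 21976 with FGF plus U0126 (1.64 ± 0.12, adjusted p = 1.3e-07), while FGF gave 5568 and 4416. Nqo1, a quinone reductase, went from 1682, 1884 and 1401 to 4236 and 4116 (1.39 ± 0.14), and its direct difference from FGF was 0.32 (adjusted p = 0.12). Gclm, of glutathione synthesis, rose by 0.89. Slc7a11 belongs to this list as well. Of 9 genes tied to the aryl hydrocarbon receptor, 1 was higher and 1 lower (2 lower without quiescent sample 1b or FGF plus U0126 sample 1); its standard targets Cyp1a1, with quiescent signals of 14.8, 23.4 and 33.5, and Cyp1b1 differed by 0.76 and -0.19, neither called. The called members of the receptor list were Nqo1, which rose, and Aldh3a1, which fell by 1.38 (limma adjusted p = 2.3e-06). The core TGACNNNGC, searched on both strands, was in 5 of 13 NRF2 list promoters, against 13.99% of all genes.

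Of 18 circadian clock genes, 8 fell against quiescence and 1 rose, with a median of -0.56; 5 fell without the block and 2 rose without quiescent sample 2. Among all genes, 7.97% fell and 6.41% rose against quiescence. Dbp, an output factor, had 1812, 2486 and 1430 in quiescence, 1034 and 1046 after 4 h of FGF plus U0126 and 284 and 292 after 12 h (-2.54 ± 0.27, adjusted p = 4.3e-06). Per2, a repressor in the core loop, went from 363, 235 and 195 to 38.3 and 48.7, and Per3 from 916, 872 and 692 to 151 and 202. The 12 h samples were below all quiescent samples for each of them. Per2 was still at 249 and 240 at 4 h, so that its fall of 2.18 came between 4 and 12 h. In all, 10 of the 18 fell between those times under U0126, where 2.48% of all genes fell.

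The activators of the loop, Arntl at 0.25 and Clock at 0.21, were not called against quiescence. Nfil3, a repressor that competes with Dbp, was the member that rose, from 349, 359 and 422 to 1281 and 1688 (1.89 ± 0.20, adjusted p = 5.3e-06). FGF alone gave 138 and 140 for Dbp and 25.9 and 44.4 for Per2. The direct difference from FGF was 0.98 for Dbp (adjusted p = 0.014) and 0.25 for Per2 (adjusted p = 0.70). Over the list, 9 genes were higher and 0 lower than with FGF, against 11.6% and 9.08% of all genes. As the quiescent samples were taken 12 h earlier, time in culture and treatment cannot be told apart for these genes. The E-box CACGTG, which reads the same on both strands, was in 5 of 16 promoters of the list, against 8.09% of all genes.

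**Figure D4:**
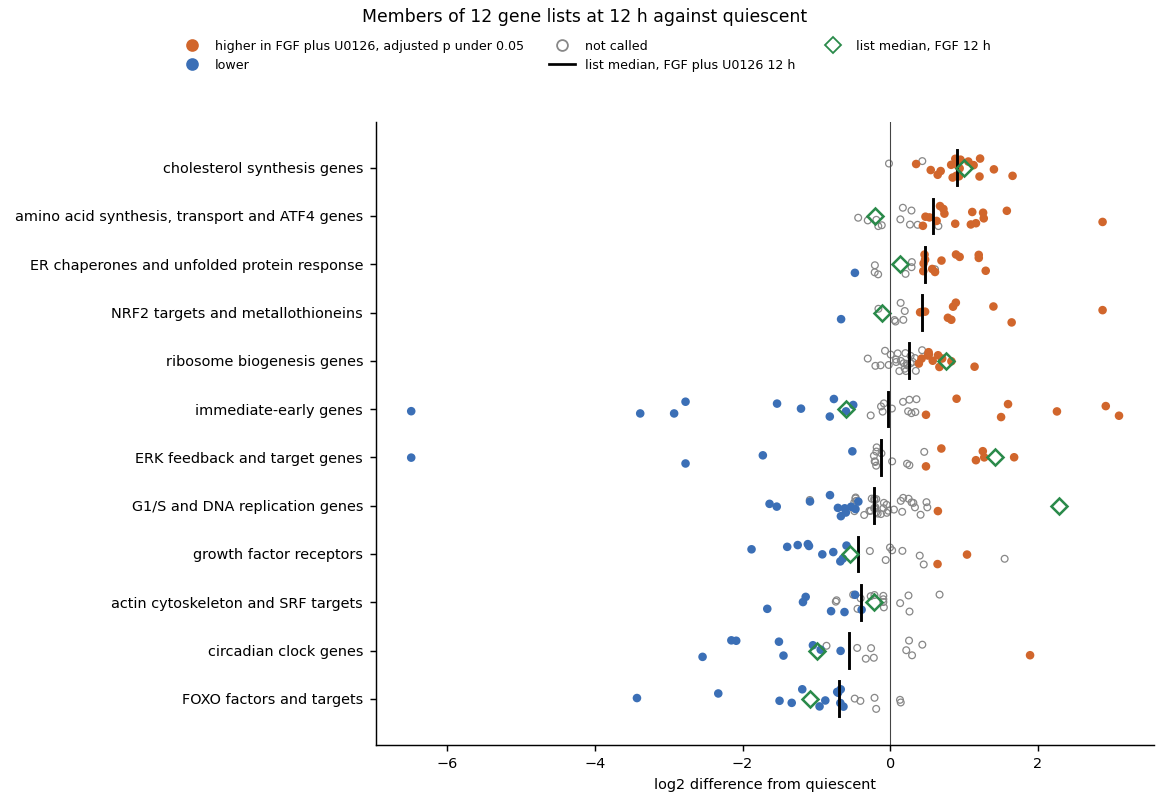
Log2 differences from quiescence at 12 h of the members of 12 gene lists (1 point per gene tested); orange and blue points were called higher and lower with FGF plus U0126, open points were not called, black bars are list medians with FGF plus U0126 and green diamonds are list medians with FGF alone. The bar and diamond lie close for cholesterol synthesis (0.90 and 1.00) and far apart for G1/S genes (-0.22 and 2.28).

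Of 20 growth factor receptors tested, 10 were lower than in quiescence and 2 higher, with a median of -0.44; those higher were Fgfr2, an FGF receptor, by 1.04 and Epha2, an ephrin receptor, by 0.64, with 1 of them left without the block, quiescent sample 2 or FGF plus U0126 sample 1 and 0 without FGF plus U0126 sample 2. Among all genes, 7.97% were lower and 6.41% higher. Pdgfra, a receptor for platelet-derived growth factor that marks fibroblasts, went from 11721, 11101 and 9571 to 2403 and 3334, or 3.68-fold lower, a difference of -1.88 ± 0.14 (adjusted p = 1.5e-07). FGF alone gave 5126 and 6468, so the inhibited cells were also lower than with FGF (-1.02, adjusted p = 3.8e-05). Pdgfrb, its partner, went from 5388, 7480 and 7239 to 2743 and 2402, or 2.63-fold lower, and had 2824 and 2412 with FGF (direct difference -0.02, adjusted p = 0.95). Ghr, the growth hormone receptor, fell by 1.25, Igf1r by 1.12 and Fgfr1, the main FGF receptor of fibroblasts, by 1.10.

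Matrix and cytoskeleton genes were lower more often than higher, and so were all genes (7.97% lower, 6.41% higher). Of 29 collagen and matrix genes, 9 were lower and 3 higher; 14 were lower after quantile normalization, 4 without the block and 4 without FGF plus U0126 sample 1. Col11a1, a fibrillar collagen, had 573, 428 and 389 in quiescence and 89.3 and 114 with FGF plus U0126 (-1.98 ± 0.22), and Col8a1 fell by 1.54. Col1a1, the main collagen of fibroblasts, fell by 0.54, a call lost without the block and without FGF plus U0126 sample 1. Thbs1, a matrix glycoprotein, rose by 1.38, a call lost without the block.

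Among 16 matrix proteases and inhibitors, 4 were lower and 2 higher, but the list median was 0.32. For this and the following lists, the shares over all genes were 7.97% lower and 6.41% higher. Adamts1 and Adamts5, which cut proteoglycans, fell by 1.44 and 1.21 and Timp3, an inhibitor, by 0.89. Of 22 actin and SRF genes 8 were lower and 0 higher, and 3 were lower without the block. The count of 8 was 5 without quiescent sample 1b, 3 without sample 2 and 4 without either FGF plus U0126 sample. Zyx, an adhesion protein, fell from 4123, 5397 and 7409 to 2224 and 3190 (-1.15 ± 0.14, adjusted p = 2.1e-05) and Fhl2, a coactivator of SRF, by 0.80. Of 13 YAP and CCN genes, 6 were lower and 3 higher, of which 1 each was left without the block; 3 were lower without quiescent sample 1b, 2 without sample 2 and 2 without FGF plus U0126 sample 2, and 1 was higher without quiescent sample 2 or FGF plus U0126 sample 1 and 0 without sample 2. Of 21 TGF-beta, BMP and ID genes 6 were lower and 1 higher; Ltbp2, which binds latent TGF-beta complexes, fell by 1.37, and Tgif1, a repressor of SMAD output, rose by 0.75.

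Chemokine genes were among those held under their quiescent level. Ccl2, which attracts monocytes, had 399, 671 and 646 in quiescence and 160 and 256 with FGF plus U0126 (-1.45 ± 0.20, adjusted p = 6.5e-05), against 6725 and 7318 with FGF. The direct difference from FGF was -5.02 (adjusted p = 2.4e-11). Ccl7, its neighbour in function, fell by 1.81 against quiescence and differed from FGF by -3.34. Ptgs2, cyclooxygenase 2, moved the other way, from 1681, 2466 and 2207 to 6506 and 9331 (1.87 ± 0.19), and FGF gave 6217 and 6130. Of 17 genes of the chemokine, cytokine and NF-kB list, 2 were higher (1 without the block, quiescent sample 2 or either FGF plus U0126 sample) and 4 lower than in quiescence, and 1 was higher and 8 were lower than with FGF. Of 18 interferon and antigen presentation genes, 5 fell and 0 rose; the count was 2 without the block, 2 without quiescent sample 2, 3 without FGF plus U0126 sample 1 and 2 without sample 2. For both lists, the shares over all genes were 6.41% higher and 7.97% lower than in quiescence, and 11.6% and 9.08% than with FGF. Gbp2, a guanylate-binding protein, fell from 905, 920 and 848 to 191 and 229, or 4.01-fold lower (adjusted p = 2.1e-06).

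Growth genes rose in part. Of 34 ribosome biogenesis genes, 11 were higher than in quiescence and 0 lower, against 6.41% and 7.97% of all genes. The list median was 0.25, while that with FGF alone was 0.76. The count of 11 was 3 without the block, 6 without quiescent sample 2, 5 without FGF plus U0126 sample 1 and 3 without sample 2. Nhp2, a protein of the H/ACA particles that modify ribosomal RNA, kept its call under all 16 alternatives, with 2966, 2796 and 2815 in quiescence and 6628 and 5968 with FGF plus U0126 (1.14 ± 0.12, adjusted p = 4.3e-06). Odc1, the first enzyme of polyamine synthesis, rose from 1903, 2006 and 1728 to 4410 and 4047 (1.20 ± 0.10), and Srm, spermidine synthase, by 0.87. Both were lower than with FGF, with differences of -0.65 (adjusted p = 6.2e-05) and -0.49 (adjusted p = 0.0041). Among all genes, 11.6% were higher and 9.08% lower than with FGF. Of 23 lysosome and autophagy genes 5 were higher and 2 lower (0 without the block, quiescent sample 2 or FGF plus U0126 sample 2, and 1 without quiescent sample 1b), and 15 were higher and 0 lower than with FGF; the 5 were 2 without the block, 2 without quiescent sample 2 and 3 without either FGF plus U0126 sample.

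The remaining lists had between 1 and 7 calls each, beside shares of 6.41% higher and 7.97% lower over all genes. Of 16 MYC network and polyamine genes 5 were higher and 2 lower, of 16 glycolysis genes 4 and 1, of 19 oxidative phosphorylation genes 2 and 0 and of 11 cytosolic heat shock genes 2 and 0. Of 18 p53 target genes 1 was higher and 1 lower (2 and 4 without quiescent sample 1a). Of 13 cyclin D, CDK4/6 and CDK inhibitor genes 0 were higher and 3 lower. Of 14 IGF and FGF ligand genes 1 was higher and 0 lower, and of 14 RAS, RAF, MEK and ERK pathway genes 0 were higher and 2 lower. Of 9 reference genes, Hprt was called higher, by 0.38, a call lost without the block, without quiescent sample 1b or 2 and without FGF plus U0126 sample 1. Without quiescent sample 2 the numbers higher were 3 for the MYC list, 2 for glycolysis, 1 for oxidative phosphorylation and 0 for heat shock genes. Without FGF plus U0126 sample 2 they were 3, 1, 1 and 0, and without sample 1 they were 3 for the MYC list and 2 for glycolysis. The numbers lower in the cyclin D and RAS lists were each 1 without quiescent sample 2 or FGF plus U0126 sample 2, and for the RAS list also without sample 1. In the MYC list 1 was lower without FGF plus U0126 sample 1. In the glycolysis list 0 were lower without the block, quiescent sample 1b or 2 or either FGF plus U0126 sample. Heat shock genes had 1 higher without quiescent sample 1b. Without the block the numbers higher were 3 for the MYC list, 2 for glycolysis and 1 each for oxidative phosphorylation and heat shock, and the numbers lower were 1 each for the MYC, cyclin D and RAS lists.

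The largest rises were mostly in genes outside these lists. Hbb-bh1, annotated as an embryonic beta-like globin, had 56.6, 32.4 and 61.1 in quiescence and 1033 and 888 with FGF plus U0126, with no overlap (3.90 ± 0.27, adjusted p = 5.3e-08). FGF alone gave 45.5 and 53.3, a direct difference of 3.95 (adjusted p = 6.6e-09). At 4 h under U0126 the signals were 243 and 260, so it rose further between 4 and 12 h (1.87, adjusted p = 6.1e-04). Car6, a secreted carbonic anhydrase, had 553, 614 and 1256 in quiescence, 4496 and 6085 with FGF plus U0126 and 212 and 350 with FGF. It rose by 2.59 ± 0.19 against quiescence (adjusted p = 1.3e-07), and its direct difference from FGF was 4.19.

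Several further genes had the same order, with quiescence and FGF alone both well below FGF plus U0126. Mef2c, a MADS-box transcription factor, gave 319, 394 and 209 in quiescence, 1464 and 1586 with FGF plus U0126 and 214 and 229 with FGF. Gpr176, an orphan receptor, gave 512, 408 and 482, then 2772 and 2279, and 435 and 695 with FGF. Cdsn, a protein of skin cell junctions, rose by 2.25. FGF alone also gave high signals for some of the genes. Lrp8, a receptor for apolipoprotein E and reelin, went from 311, 299 and 266 to 1459 and 1227 (2.18 ± 0.13), with 1972 and 1873 under FGF. Against quiescence Ptchd4, related to the hedgehog receptor, rose by 2.65 and Cd300lb, a surface receptor of myeloid cells, by 2.80. Their values with FGF alone are not given here. Hdac9, a class IIa histone deacetylase that binds MEF2 factors, had dim quiescent signals of 10.1, 25.2 and 4.7. Its rise was 3.10 with the offset of 13.6 and 2.06 with the 40th percentile. With an offset of 1 the gene was at 1.59 and no longer called. A smaller offset enlarges a rise on the same probe set, so that value belongs to another probe set of Hdac9.

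Large falls outside the lists follow, with values under FGF alone given for Cyp26b1 and Angpt1 only. Cyp26b1, which degrades retinoic acid, went from 1707, 1398 and 1740 to 178 and 324 (-2.70 ± 0.21, adjusted p = 1.6e-07), with 283 and 411 under FGF. Mturn went from 2313, 1961 and 2322 to 384 and 469 and Prelp, a small matrix proteoglycan, from 1346, 2004 and 1992 to 369 and 390. Rasgrp3, an activator of RAS and RAP proteins, fell by 2.90. Angpt1, the ligand of the TIE2 receptor, differed in that FGF plus U0126 gave 417 and 699 where FGF gave 1563 and 1604 and quiescence 2621, 2264 and 2770. Its differences were -2.24 from quiescence and -1.53 from FGF (adjusted p = 8.5e-07).

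The comparison with FGF alone named further genes, among them Ccn5 and Aldh1a1. Ccn5, a growth-inhibiting CCN protein, had 2934, 2833 and 2999 in quiescence, 3045 and 1998 with FGF plus U0126 and 245 and 200 with FGF. Aldh1a1, a retinaldehyde dehydrogenase, had 1096, 400 and 275 in quiescence, 377 and 371 with FGF plus U0126 and 21.5 and 14.1 with FGF. Their differences from quiescence, -0.25 and -0.19, were not called, and those from FGF were 3.40 (adjusted p = 1.4e-10) and 3.64 (adjusted p = 1.6e-08).

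The state under U0126 also moved with time. Between 4 and 12 h 366 genes rose and 372 fell, or 738 in all, but 133 without the block and between 249 and 381 when 1 of the 4 samples was left out, the lowest without FGF plus U0126 12 h sample 2. Egr1 fell from 344 and 254 at 4 h to 43.4 and 60.7 at 12 h (-2.25, adjusted p = 1.5e-05). Nr4a3 fell from 2096 and 3266, a call lost without the block, without either 4 h sample and without the 12 h sample 1. Ccnd1 was lower at 4 h, with 964.9 and 1088, and rose by 0.81 to 12 h (adjusted p = 0.0024). Gsta2, a glutathione transferase, rose by 2.54 from dim signals of 37.2 and 6.4 to 208 and 142, a call lost without the 4 h sample 2 (1.73), without the 12 h sample 1 (2.22) and without the variance trend.

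Few markers of other cell types were called. Of the 11 fibroblast markers, 4 fell (Pdgfra, Pdgfrb, Dcn and Col1a1), and the summed signal of the list was 176385 to 190982 in quiescence and 139028 to 161460 with FGF plus U0126. Fewer cells of a type and less RNA per cell cannot be told apart in such bulk samples. Of 8 macrophage markers 1 was higher, Cd14 by 0.43, with summed signals of 1187 to 1447 in quiescence and 1485 to 1490 with FGF plus U0126. Of 9 muscle markers 1 was lower, Tnnt3 by -1.66, with sums of 475 to 738 and 398 to 530. Both calls were lost without the block, without quiescent sample 2 and without FGF plus U0126 sample 1, and that of Cd14 also without quiescent sample 1b or FGF plus U0126 sample 2.

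At an adjusted p under 0.05 limma called 0 of 10 epithelial, 8 endothelial and 5 adipocyte markers. Summed signals in quiescence and with FGF plus U0126 were 2520 to 3823 and 3439 to 3752 for the epithelial list, 341 to 393 and 360 to 368 for the endothelial list, and 15082 to 19019 and 17683 to 22602 for the adipocyte list. Quiescent means were under the 40th percentile for 5 of 10 epithelial, 6 of 8 endothelial and 4 of 5 adipocyte markers. The adipocyte sum in quiescence therefore comes almost wholly from the remaining marker. The part of other cell types in the results was not tested.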

How the data were processed

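The series holds 19 NIH3T3 samples, each hybridised to 1 Affymetrix array. The authors deposited MAS5 signal intensity values, per the submitters' processing notes; the version is not given in the sources used here. Every array had a trimmed mean of 500 (2% cut from each end), so a change of total RNA per cell would not be seen. Of 45101 probe sets, 64 were controls, 34945 had 1 gene in the platform annotation, 932 several and 9160 none.

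A probe set was used if it exceeded its array's 40th percentile on 2 or more arrays, which left 27915. The brightest on average stood for its gene, giving 14996 genes. An offset of 13.6, the 20th percentile of all signals, went in before log2. Limma 3.58.1 in R 4.3.3 (lmFit, then eBayes with a variance trend) fitted the 11 groups together, with quiescent samples 1a and 1b averaged (18 columns) and the experiment number from the labels as a block. This left 6 residual degrees of freedom. Tests were two-sided, with Benjamini-Hochberg adjustment over all genes. The pairing was taken from the experiment number in the sample titles. As a check, deviations from group means correlated within experiments at 0.127 to 0.305 over 21 pairs of groups. For quiescence and FGF plus U0126 at 12 h the correlation was 0.169. The 3 comparisons share the FGF plus U0126 12 h samples. Precision is limited by how few arrays there are. The fit was also run on simulated data with independent noise and an experiment effect built in. Such data cannot show whether the block is the right choice.

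Members and the 38 gene lists were chosen with earlier results of these data known. The rule for named genes took called genes that moved alike in both experiments with a higher group mean above 74.0: the 15 largest changes each way against quiescence and 6 each way in the other 2 comparisons. It added up to 4 called members of each list and 20 fixed genes, of which 1 is not reported here. Any further gene was named after its values were seen. Alternatives were 2 scalings (quantile, 75th percentile), 2 offsets (1, 40th percentile), no filter, a stricter filter (median, 4 arrays), no variance trend, no block, a fit on the compared groups alone, unaveraged quiescent samples, the most variable probe set, and each sample left out; a lone sample then borrowed the spread of other groups. Promoters are 32851 RefSeq windows (GRCm38.p6).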

Additional observations from a re-analysis of the deposited data

Results flagged for a closer look

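Syvn1, the ubiquitin ligase of ER protein degradation, lay on opposite sides of its quiescent level at the 2 times under U0126. Signals were 1533, 1690 and 1790 in quiescence, 2671 and 2162 after 4 h of FGF plus U0126 and 1377 and 1068 after 12 h. Its difference from quiescence was 0.50 at 4 h and -0.48 at 12 h, both against the same quiescent samples. As given with the ER genes, the 12 h call was lost without the block and when any of several single samples was left out. The direct difference, 12 h minus 4 h, was -0.98 (limma adjusted p = 0.0014).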

How the results depend on the processing

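The number of genes called against quiescence, 2156, was 1383 with the probe set of highest variance, 813 with no replicate block, 1077 with no variance trend, and 984 to 2277 when 1 sample was left out; the other 8 alternatives stayed within 1.5 times. Against FGF at 12 h, 3094 became 1806 with no replicate block and 1877 to 2198 without 1 sample. Between 4 and 12 h under U0126, 738 became 133 with no replicate block, 57 with no variance trend and 249 to 381 without 1 sample. Leaving out a sample also leaves fewer residual degrees of freedom; otherwise the cause was not tested. Of 137 named genes called against quiescence, 87 kept their call and direction under all 16 alternatives and 34 lost it without the block. All 12 genes named for the comparison with FGF kept theirs under its 15 alternatives, and 2 of 12, Egr1 and Herpud1, did so between 4 and 12 h. Under the probe set of highest variance 3 named genes turned direction: Fhl1 to 0.95, Fjx1 to -0.96 and Rps6ka3 to 0.22. Presence calls were not used here, so dim genes have no measured bound over background.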

Other observations

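A single array, with no replicate and so no test, held cells that had FGF for 12 h and received U0126 only at 7 h. The list and the genes given for it were chosen after values were seen. Of 47 G1/S and DNA replication genes, 44 lay on it above both samples with U0126 from the start and below both with FGF alone. The 3 exceptions were Cdk2 and E2f2, not above both of the former, and Rfc5, not below both of the latter. All 47 were lower with U0126 from the start than with FGF alone, which leaves room for values in between. As the share over all genes was not computed, the count cannot be read as particular to this list. Cdc6 gave 430.5, against 48.2 and 19.7 with U0126 from the start and 1938 and 1673 with FGF alone. Mcm3 gave 2010, against 553 and 392 with U0126 from the start and 5469 and 4733 with FGF alone. Tk1 gave 1649, against 156 and 56.7, and 4224 and 2974.

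Genes that rose or fell with U0126 from the start differed in where they lay on this array. Hbb-bh1 gave 986, between the 1033 and 888 seen with U0126 from the start, and Nr4a3 gave 867, between 447 and 889. Mef2c gave 1656, just above 1464 and 1586, and Ccl2 gave 288, just above 160 and 256. Dusp6 gave 1050, below the 1405 and 1630 with U0126 from the start and the 6720 and 6741 with FGF alone. Gsta4 gave 11342, between 21972 and 21976 with U0126 from the start and 5568 and 4416 with FGF alone.

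Herpud1 gave 14951 on it, above both 12 h arms, where U0126 from the start gave 4484 and 4096 and FGF alone 2932 and 2431. With U0126 from the start it was at 18140 and 16121 at 4 h and at 13610 and 9443 at 7 h. Syvn1 gave 2860, also above both 12 h arms. Lss at 2373 and Hmgcs1 at 19024 were above both as well.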
